A study of Mus musculus with 6 samples.

Results

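Gprc5a, Gprc5b, Gprc5c and Gprc5d are the 4 members of the Gprc5 family of orphan receptors, found by symbol among the 44788 genes of the ovary count table. The family was chosen by the measured difference of Gprc5a between the genotypes in these same counts, so the differences between genotypes are described for the members without a test. The data are RNA-seq counts from whole ovaries of 8-week-old C57BL/6 J mice, 3 wild type (Bnc1+/+, replicates 1, 4 and 7) and 3 homozygous for a truncated basonuclin 1 gene (Bnc1tr/tr, replicates 1, 2 and 3). The truncation comes from a small deletion that shifts the Bnc1 reading frame, and it is present in every cell of the mutant mouse, so nothing here is limited to oocytes. The labels name no treatment for either genotype, and the estrous stage of the mice was not given in the sources used here. Bnc1 itself was counted at 375, 444 and 381 reads in Bnc1+/+ and at 527, 355 and 326 reads in Bnc1tr/tr ovaries. These ranges overlapped. A total for the whole gene cannot check the genotype, since a small deletion leaves nearly all of the transcript to be counted.

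GPRC5 proteins span the membrane in the manner of class C G protein-coupled receptors, the class that also holds the metabotropic glutamate, GABA-B, calcium-sensing and taste receptors, but they have a short outer part and no settled ligand. The family was first met as retinoic acid-induced genes in epithelial cells. GPRC5A is best known from lung and other epithelia, where it restrains EGFR and STAT3 signaling. GPRC5B is found in lipid rafts and binds the kinase FYN, GPRC5C is known from kidney tubules and dormant blood stem cells, and GPRC5D from hair-forming cells and plasma cells.

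The count table held 25247770 to 34406296 reads for each ovary. Expression is given as CPM, read counts scaled to the size of each library, with TMM factors that even out differences in library make-up, with the mean ± SD over 3 ovaries. Of 19423 genes that passed a filter on low counts, 7.06% passed an adjusted p of 0.05 in edgeR's quasi-likelihood test (DEGs), 2.88% as higher and 4.19% as lower in Bnc1tr/tr. Of these calls 59.3% were lower, and 35.6% were when library size alone was used for scaling. In 15.0% of all genes tested, every Bnc1tr/tr ovary lay above every Bnc1+/+ ovary. As a check of the labelled tissue, markers of oocytes and granulosa cells were present, such as Zp3 (130 and 160 CPM on average in Bnc1+/+ and Bnc1tr/tr) and Amh (174 and 364 CPM). Of 9 granulosa cell markers, 4 had a log2 fold change above 0 and 5 below, with a median of -0.03. Amh was the 1 DEG of the 9, where 7.06% of all genes were. On omission of any 1 ovary, 0 to 2 of the 9 were called higher. The summed CPM of 7 oviduct epithelium markers stood apart in 2 ovaries. It was 137 in Bnc1+/+ replicate 1 and 512 in Bnc1tr/tr replicate 3, against 11.8 to 28.3 in the other 4.

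Gprc5a was the member whose values did not overlap between the genotypes. Gprc5a, a receptor of epithelial cells, was counted at 34, 53 and 51 reads in Bnc1+/+ replicates 1, 4 and 7 and at 683, 443 and 592 reads in Bnc1tr/tr replicates 1, 2 and 3. On the TMM scale this was 1.26, 1.60 and 1.76 CPM against 24.3, 17.1 and 20.9 CPM. The lowest Bnc1tr/tr ovary lay far above the highest Bnc1+/+ ovary. The means were 1.54 ± 0.253 CPM (SD, n = 3) and 20.7 ± 3.62 CPM (SD, n = 3), a 13.5-fold difference in mean CPM. The fitted log2 fold change was 3.74 (standard error 0.20, 95% interval 3.29 to 4.20). It was the 33rd largest log2 fold change of the 19423 genes tested, and Gprc5a moved from the 19.9th percentile of mean CPM in Bnc1+/+ to the 53.3rd in Bnc1tr/tr. Of the 3 members that passed the filter, Gprc5a was among the genes called higher, which were 2.88% of all genes tested. The choice of the family by Gprc5a fixes this count, and nothing is read from it. Its relative spread, the coefficient of variation, was 16.4% in Bnc1+/+ and 17.5% in Bnc1tr/tr. Counting error weighs more in the first, at 34 to 53 reads, than in the second, at 443 to 683 reads, and was not taken out. Leaving out each ovary in turn gave log2 fold changes from 3.61 to 3.86. Without both ovaries that were high in oviduct markers, the log2 fold change of Gprc5a was 3.61.

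**Figure D1:**
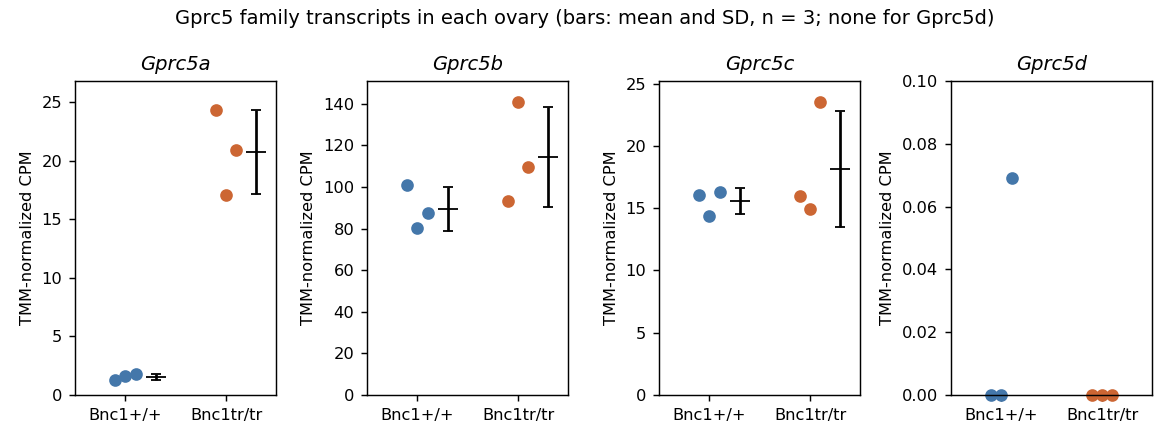
TMM-normalized CPM (vertical axes, each from 0, each on its own scale) of the 4 members in the 3 Bnc1+/+ (blue) and 3 Bnc1tr/tr (orange) ovaries, with points for ovaries in replicate order and black bars for mean and SD, which are left out for Gprc5d. Gprc5a lies at 1.26 to 1.76 CPM in Bnc1+/+ and 17.1 to 24.3 CPM in Bnc1tr/tr, while the genotypes overlap for Gprc5b and Gprc5c and Gprc5d holds 2 reads in a single ovary.

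Gprc5b carried most of the family's transcripts in every ovary. Gprc5b, the lipid raft member, was at 101, 80.4 and 87.3 CPM in Bnc1+/+ replicates 1, 4 and 7 and at 93.0, 141 and 110 CPM in Bnc1tr/tr replicates 1, 2 and 3. Bnc1tr/tr replicate 1 fell within the Bnc1+/+ range and replicates 2 and 3 above it. The means were 89.6 ± 10.6 CPM (SD, n = 3) and 114 ± 24.2 CPM (SD, n = 3), with a log2 fold change of 0.35 (standard error 0.16, 95% interval -0.02 to 0.72). That interval reaches from almost no difference to a rise of well under that of Gprc5a. Without Bnc1tr/tr replicate 2, the highest ovary, the log2 fold change of Gprc5b was 0.18. Gprc5b varied more among Bnc1tr/tr ovaries than most genes of its abundance, with a coefficient of variation of 21.1% against a median of 8.23% over 2210 tested genes within 0.5 log2 units of its mean CPM. In Bnc1+/+ ovaries its coefficient of variation was 11.8% against a median of 6.20%. The last 606 exonic bases of Gprc5b overlap exons of Iqck on the opposite strand, and whether reads were counted by strand was not given in the sources used here. Iqck was low, at 4.16 ± 0.356 and 4.15 ± 0.829 CPM (SD, n = 3 each), and its log2 fold change was -0.004.

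Gprc5c was steady in 5 of the 6 ovaries. Gprc5c, the kidney tubule member, was at 16.0, 14.4 and 16.3 CPM in Bnc1+/+ replicates 1, 4 and 7 and at 16.0, 14.9 and 23.5 CPM in Bnc1tr/tr replicates 1, 2 and 3. Only Bnc1tr/tr replicate 3 lay outside the Bnc1+/+ range. The means were 15.6 ± 1.04 CPM and 18.1 ± 4.69 CPM (SD, n = 3 each), with a log2 fold change of 0.22 (standard error 0.18, 95% interval -0.19 to 0.64). Without Bnc1tr/tr replicate 3 it was -0.01. That ovary also held the highest oviduct marker sum (512 CPM), with Ovgp1, an oviduct secretory glycoprotein gene, at 423 CPM against 1.60 and 18.0 CPM in Bnc1tr/tr replicates 1 and 2. Bnc1+/+ replicate 1, with Ovgp1 at 106 CPM, had 16.0 CPM of Gprc5c, inside the range of its genotype. Whether oviduct RNA had a part in the Gprc5c value of Bnc1tr/tr replicate 3 was not tested.

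Gprc5d was at the limit of detection. Gprc5d, the hair and plasma cell member, had 0, 0 and 2 reads in Bnc1+/+ replicates 1, 4 and 7 and 0 reads in all 3 Bnc1tr/tr ovaries, and it did not pass the filter. A count of 0 allows up to 3 reads, which corresponds to 0.0906 to 0.115 CPM in these ovaries and covers counting error only. No fold change is given for it. The 6 plasma cell markers, none at 0, summed to 464 to 702 CPM in Bnc1+/+ and 322 to 507 CPM in Bnc1tr/tr ovaries. Most of the sum was Sdc1, a gene that many epithelia also express, at 410 to 635 CPM in Bnc1+/+ and 188 to 405 CPM in Bnc1tr/tr (log2 fold change -0.80, edgeR adjusted p = 0.126). Derl3 was a DEG, at 50.1 to 61.9 and 77.4 to 131 CPM (log2 fold change 0.89, edgeR adjusted p = 0.0347), a call lost without Bnc1+/+ replicate 1, 4 or 7 or Bnc1tr/tr replicate 3. The joining chain gene (listed as Igj) was at 0.711 to 2.82 CPM and Tnfrsf17 at 0.0372 to 0.269 CPM.

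The start regions of the least and the most abundant member are shown to set their base composition side by side. RefSeq promoter windows on GRCm38.p6, from 250 bases before to 50 bases after the gene start and written in the direction of transcription, were at hand for 2 of the 4 members, Gprc5b and Gprc5d. Gprc5b lies on the minus strand at chr7:118995162-118995461 and Gprc5d on the minus strand at chr6:135118234-135118533. Capitals mark GC boxes (GGGCGG on either strand) and the TATA box (TATAAA on either strand).
Gprc5b: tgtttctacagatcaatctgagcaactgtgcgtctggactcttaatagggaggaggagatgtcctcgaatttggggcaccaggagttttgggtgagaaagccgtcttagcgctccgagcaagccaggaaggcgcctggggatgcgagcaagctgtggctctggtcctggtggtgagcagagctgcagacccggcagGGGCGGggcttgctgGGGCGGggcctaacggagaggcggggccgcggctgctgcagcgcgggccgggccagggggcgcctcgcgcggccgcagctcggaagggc
Gprc5d: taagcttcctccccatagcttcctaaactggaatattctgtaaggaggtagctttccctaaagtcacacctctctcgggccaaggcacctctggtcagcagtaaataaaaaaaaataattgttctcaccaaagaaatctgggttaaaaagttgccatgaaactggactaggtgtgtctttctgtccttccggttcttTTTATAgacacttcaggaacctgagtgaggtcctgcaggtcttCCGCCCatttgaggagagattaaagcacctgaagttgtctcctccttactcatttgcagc
The Gprc5b window is 66.3% G and C with 23 CG dinucleotides, and the Gprc5d window 44.3% with 3, against medians of 52.7% and 7 over 32851 promoter windows. Gprc5b holds 2 GC boxes read in the direction of transcription, and Gprc5d holds 1 GC box and 1 TATA box, both read on the opposite strand. A GC box is present in 35.7% and a TATA box in 13.6% of all windows. The core motif bound by retinoic acid receptors, AGGTCA, present in 16.3% of all windows, was not found in either, and nor were direct repeats of it spaced by 2 or 5 bases. No match says only that these letters are missing from the window.

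To order the members, CPM was divided by the length of the merged exons in kb. In Bnc1+/+ ovaries the order was Gprc5b at 19.4 ± 2.28, Gprc5c at 2.97 ± 0.199 and Gprc5a at 0.740 ± 0.121 CPM per kb (SD, n = 3 each), and the 3 members did not overlap in any ovary. In Bnc1tr/tr ovaries Gprc5a overtook Gprc5c. Gprc5b was at 24.7 ± 5.22, Gprc5a at 9.96 ± 1.74 and Gprc5c at 3.46 ± 0.893 CPM per kb (SD, n = 3 each), again without overlap between neighbors in the order. The Gprc5a level was 0.199, 0.280 and 0.271 times the Gprc5c level per kb in Bnc1+/+ replicates 1, 4 and 7, and 3.82, 2.88 and 2.23 times in Bnc1tr/tr replicates 1, 2 and 3. The order between Gprc5b and Gprc5c did not turn in any ovary, with ratios per kb from 5.28 to 10.7. With the longest transcript (3667 bases) in place of the merged exons (5245 bases), Gprc5c was at 4.25 and 4.95 CPM per kb in Bnc1+/+ and Bnc1tr/tr, which left both orders as they were.

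The make-up of the family shifted with Gprc5a. Its share of the family's CPM per kb was 2.38%, 3.68% and 3.69% in Bnc1+/+ replicates 1, 4 and 7 and 33.5%, 19.8% and 26.2% in Bnc1tr/tr replicates 1, 2 and 3. The share of Gprc5b was 83.8% ± 1.66 in Bnc1+/+ and 64.4% ± 8.08 in Bnc1tr/tr (SD, n = 3 each). The family total was 25.5, 20.9 and 22.9 CPM per kb in Bnc1+/+ and 34.8, 41.4 and 38.2 CPM per kb in Bnc1tr/tr ovaries. Every Bnc1tr/tr ovary thus held more than every Bnc1+/+ ovary, an order found for 15.0% of all genes tested. The total includes Gprc5a, by which the family was chosen, so nothing is read from this order. Gprc5b and Gprc5c, taken singly, overlapped between the genotypes. Between the means, 23.1 and 38.1 CPM per kb, Gprc5a made up 9.96 of the Bnc1tr/tr total and 0.740 of the Bnc1+/+ total. By reads without regard to length, Gprc5a made up 1.47% ± 0.345 of the family in Bnc1+/+ and 13.9% ± 4.18 in Bnc1tr/tr (SD, n = 3 each).

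**Figure D2:**
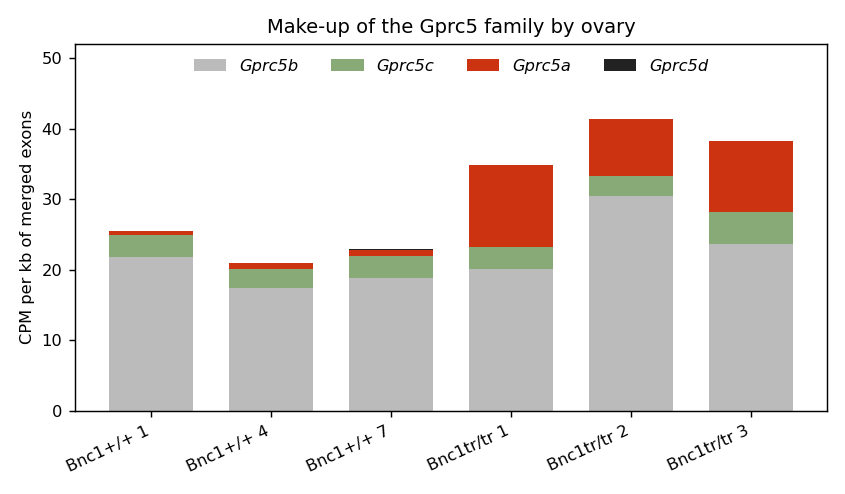
Stacked bars of the level of each Gprc5 member in CPM per kb of merged exons (vertical axis, from 0) in the 6 ovaries (horizontal axis). Gprc5a, in red, takes 2.38% to 3.69% of a Bnc1+/+ bar and 19.8% to 33.5% of a Bnc1tr/tr bar, and Gprc5d is too low to see.

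Gprc5a and Gprc5d are chromosomal neighbors, yet only the first was detected beyond a few reads. On GRCm38 with GENCODE M21, Gprc5a (ENSMUSG00000046733.7) lies on the plus strand of chromosome 6 from 135065651 to 135084709 and Gprc5d (ENSMUSG00000030205.15) on the minus strand from 135105991 to 135118283, 21282 bases away. Gprc5b (ENSMUSG00000008734.9) is on chromosome 7 from 118972047 to 118995211, minus strand, and Gprc5c (ENSMUSG00000051043.16) on chromosome 11 from 114851152 to 114872617, plus strand. Of 18 protein-coding neighbors, the 3 nearest on each side of each member, 12 were tested and 2 were DEGs, where 7.06% of all genes were, both lower in Bnc1tr/tr and both near Gprc5a. Cdkn1b, which encodes the cell cycle inhibitor p27, fell from 212 ± 9.46 to 109 ± 20.1 CPM (SD, n = 3), with log2 fold change -0.96 (standard error 0.13, edgeR adjusted p = 0.00714). Apold1, a gene of endothelial cells, fell from 4.93 ± 1.46 to 2.26 ± 0.0643 CPM (SD, n = 3), with log2 fold change -1.13 (standard error 0.26, edgeR adjusted p = 0.0434). The 6 endothelium markers, none at 0, summed to 573 to 716 CPM in Bnc1+/+ and 372 to 441 CPM in Bnc1tr/tr ovaries, without overlap, and 4 of the 6 were DEGs, all lower (2 to 4 on omission of any 1 ovary). Their part in the Apold1 value was not tested. Ddx47, an RNA helicase gene that is the nearest on the other side of Gprc5a, had a log2 fold change of -0.27 (edgeR adjusted p = 0.0654), and Hebp1, a heme-binding protein gene just beyond Gprc5d, one of 0.27 (edgeR adjusted p = 0.442). Without Bnc1+/+ replicate 4 both calls were lost (edgeR adjusted p = 0.0522 for Cdkn1b and 0.167 for Apold1), and that of Apold1 was also lost without Bnc1+/+ replicate 7 or any 1 Bnc1tr/tr ovary (edgeR adjusted p from 0.0788 to 0.147).

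Other class C receptors include a pair of glutamate receptor genes that were higher in Bnc1tr/tr. Of 18 such genes listed, 9 were tested and 2 were DEGs, where 7.06% of all genes were, and the median log2 fold change of the 9 was 0.04, against 0.02 for all genes tested. Grm2, a metabotropic glutamate receptor gene, was at 2.94, 2.87 and 2.17 CPM in Bnc1+/+ and at 10.1, 5.47 and 9.69 CPM in Bnc1tr/tr ovaries, a log2 fold change of 1.66 (standard error 0.27, edgeR adjusted p = 0.0138). Grm4, a receptor of the same kind, was at 3.57, 3.23 and 2.28 CPM and at 8.64, 5.39 and 12.0 CPM, a log2 fold change of 1.52 (standard error 0.32, edgeR adjusted p = 0.0324). Gabbr1, a GABA-B receptor subunit and the highest of the list in CPM, was at 110 ± 9.02 and 93.2 ± 6.66 CPM (SD, n = 3 each). Grm2 was short of the threshold without Bnc1+/+ replicate 4 or 7 (edgeR adjusted p = 0.0750 and 0.0611). Grm4 was short of it without Bnc1+/+ replicate 1, 4 or 7 or Bnc1tr/tr replicate 1 or 3 (edgeR adjusted p from 0.0607 to 0.129). The calcium-sensing receptor gene Casr was at 0.140 ± 0.0915 and 0.0721 ± 0.0936 CPM (SD, n = 3 each), and Grm5 had no read in any ovary.

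**Figure D3:**
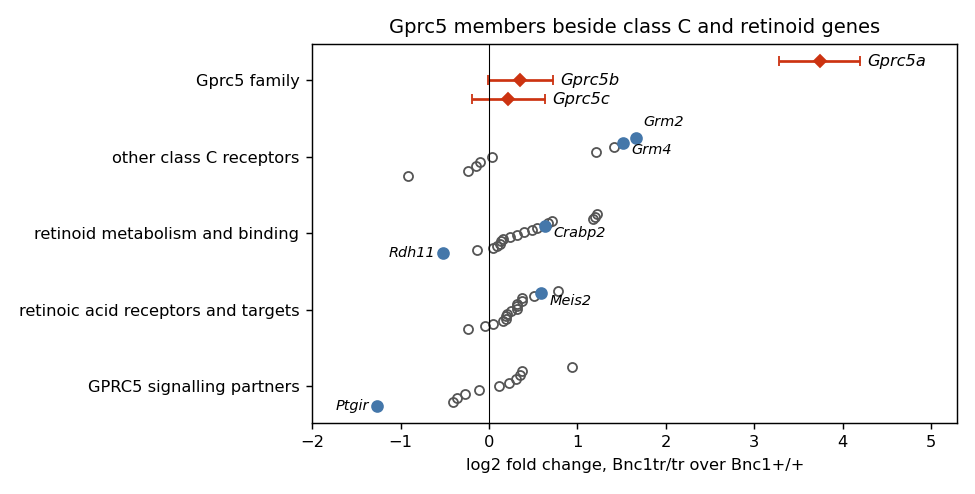
Log2 fold changes of Bnc1tr/tr over Bnc1+/+ (horizontal axis) for the 3 Gprc5 members tested (red diamonds with 95% intervals) and for the tested genes of 4 lists (circles, filled and named where the edgeR adjusted p was under 0.05, spread vertically only to be seen). Gprc5a, by which the family was chosen, is drawn at 3.74, the intervals of Gprc5b and Gprc5c reach 0, and the named genes run from Ptgir at -1.26 to Grm2 at 1.66.

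Retinoic acid induces Gprc5a in other cells, and the genes that make, bind and sense it were set beside the family. Of 18 tested genes of retinoid metabolism and binding, 16 had a log2 fold change above 0, and 2 were DEGs, where 7.06% of all genes were. The median was 0.36, against 0.02 for all genes tested. Of all genes tested, 46.9% had a log2 fold change below that of Iqck, -0.004. With library size alone as the scaling 2 of the 18 were called higher and 0 lower, and with DESeq2 3 higher and 1 lower. Crabp2, which carries retinoic acid to its receptors, rose from 18.7 ± 3.56 to 29.2 ± 0.714 CPM (SD, n = 3), with log2 fold change 0.64 (standard error 0.14, edgeR adjusted p = 0.0360). Rdh11, a retinal reductase gene, fell from 78.8 ± 8.17 to 55.0 ± 5.14 CPM (SD, n = 3), with log2 fold change -0.52 (standard error 0.11, edgeR adjusted p = 0.0331). The synthesis gene Aldh1a1 was the most abundant by CPM, at 1631 ± 183 and 1927 ± 623 CPM (SD, n = 3 each), with a log2 fold change of 0.24 (edgeR adjusted p = 0.571). Cyp26b1, whose product breaks retinoic acid down, had a log2 fold change of 0.10 (edgeR adjusted p = 0.857). The call of Crabp2 was lost without Bnc1+/+ replicate 1 or 7 or any 1 Bnc1tr/tr ovary (edgeR adjusted p from 0.0686 to 0.119), and that of Rdh11 without any 1 of the 6 ovaries (edgeR adjusted p from 0.0502 to 0.127).

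Of 16 tested receptors, cofactors and targets of retinoic acid, 14 had a log2 fold change above 0, and 1 was a DEG, where 7.06% of all genes were. The median was 0.28, against 0.02 for all genes tested. With library size alone as the scaling 4 were called higher, and with DESeq2 3 were. Meis2, a homeobox cofactor gene, rose from 13.3 ± 0.947 to 20.1 ± 2.44 CPM (SD, n = 3), with log2 fold change 0.59 (standard error 0.12, edgeR adjusted p = 0.0330). The receptor gene Rarb, a classical target of its own ligand, was at 1.24 ± 0.217 and 1.76 ± 0.624 CPM (SD, n = 3 each) with a log2 fold change of 0.51 (edgeR adjusted p = 0.382), and Cyp26a1, another classical target, was at 0.236 ± 0.159 and 0.113 ± 0.135 CPM (SD, n = 3 each) and was not tested. Meis2 was short of the threshold without Bnc1+/+ replicate 1, 4 or 7 or Bnc1tr/tr replicate 2 or 3 (edgeR adjusted p from 0.0686 to 0.142). Whether retinoic acid had a part in the Gprc5a difference was not tested.

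Among genes whose products are known to work with GPRC5A or GPRC5B, the prostacyclin receptor gene was lower in Bnc1tr/tr. Of 11 such genes, all tested, 1 was a DEG, where 7.06% of all genes were. With library size alone as the scaling 3 of them were called higher, and with DESeq2 2 were. Ptgir, the prostacyclin receptor gene linked to GPRC5B in smooth muscle, fell from 4.36 ± 0.193 to 1.82 ± 0.200 CPM (SD, n = 3), with log2 fold change -1.26 (standard error 0.19, edgeR adjusted p = 0.0108), with an edgeR adjusted p of 0.0679 without Bnc1+/+ replicate 4. Egfr was at 46.2 ± 5.38 and 60.0 ± 1.31 CPM (SD, n = 3 each) with a log2 fold change of 0.38 (edgeR adjusted p = 0.0639). Stat3 was at 149 ± 19.2 and 123 ± 13.3 CPM (SD, n = 3 each) with a log2 fold change of -0.27 (edgeR adjusted p = 0.218), and the STAT3 target Socs3 had one of -0.41 (edgeR adjusted p = 0.349). Fyn, the kinase gene, had a log2 fold change of 0.11 (edgeR adjusted p = 0.518). The ovaries of the genotypes did not overlap for 7 of the 11 (Cav1, Egfr, Erbb2, Ptgir, Sgms2, Stat3 and Trp53), and for 30.8% of all genes tested.

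Marker lists of other cell types were set beside Gprc5a, and some of them differed between the genotypes. In bulk tissue, fewer cells of a type and less RNA per cell cannot be told apart. The counts of DEGs given for these lists stand beside 7.06% of all genes tested, 2.88% higher and 4.19% lower in Bnc1tr/tr. The summed CPM of 8 corpus luteum markers, all with counts, was 21018 to 25313 in Bnc1+/+ and 6707 to 11958 in Bnc1tr/tr ovaries, and 7 of the 8 were DEGs, all lower. Between 1 and 4 of these calls were left without Bnc1+/+ replicate 1, 4 or 7 or Bnc1tr/tr replicate 3. Akr1c18, the marker that was not a DEG, was at 12.2 to 103 CPM in Bnc1+/+ and 6.72 to 71.8 CPM in Bnc1tr/tr (edgeR adjusted p = 0.647). Most of the luteal sum was Cyp11a1 (10158 and 3547 CPM on average in Bnc1+/+ and Bnc1tr/tr) and Hsd3b1 (8430 and 5114 CPM). The sum of 8 ovarian surface epithelium markers, none at 0, was 308 to 356 CPM in Bnc1+/+ and 343 to 448 CPM in Bnc1tr/tr, ranges that overlapped, and 1 of the 8 was a DEG, the surface gene Lrrn4 (log2 fold change 1.22, edgeR adjusted p = 0.0167). On omission of any 1 ovary, 0 to 2 of the 8 were called higher. The log2 fold change was above 0 for 6 of the 8 and below 0 for 2. The 2 were Msln (-0.54, edgeR adjusted p = 0.268) and Upk1b (-0.40, edgeR adjusted p = 0.341). Keratins of simple epithelia, such as Krt8 at 57.2 and 65.0 CPM and Krt18 at 38.6 and 43.8 CPM on average in Bnc1+/+ and Bnc1tr/tr, were present in all ovaries. Of 10 oocyte markers, none at 0, 4 were DEGs, all higher (Bmp15, Dazl, Gdf9 and Oosp1), with sums of 458 to 606 CPM in Bnc1+/+ and 596 to 923 CPM in Bnc1tr/tr ovaries, which overlapped. At most 1 of these calls was left without Bnc1+/+ replicate 1, 4 or 7 or Bnc1tr/tr replicate 1 or 3. All 7 adipocyte markers, none at 0, had a log2 fold change above 0, with a median of 2.34, and 1 was a DEG (Plin1). Their sums, 17.0 to 117 CPM in Bnc1+/+ and 34.2 to 430 CPM in Bnc1tr/tr, overlapped. The Plin1 call was lost without Bnc1+/+ replicate 1, 4 or 7 or Bnc1tr/tr replicate 1 or 2 and with limma-voom or a robust edgeR fit. The part of luteal, endothelial, surface epithelial, oocyte and adipocyte RNA in the Gprc5a difference was not tested.

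None of the oviduct markers was at 0. Gprc5a was at 1.26 CPM in Bnc1+/+ replicate 1, where the 7 markers summed to 137 CPM, and at 24.3 CPM in Bnc1tr/tr replicate 1, where they summed to 11.8 CPM. The part of oviduct RNA in these values was not tested. A further list covered hair-forming epithelium, the tissue where Gprc5d is known. Of its 15 genes 14 were matched and 4 tested. The sum of the 14 was 3.68, 3.02 and 3.48 CPM in Bnc1+/+ and 16.5, 11.4 and 13.9 CPM in Bnc1tr/tr ovaries, without overlap. The genes behind it were the keratins Krt35, Krt71 and Krt73. These 3 were DEGs, all higher, where 2.88% of all genes tested were called higher. Krt35 and Krt71, with at most 8 reads in any Bnc1+/+ ovary, passed the filter only through the Bnc1tr/tr ovaries, and when at least 10 reads were required in every ovary the count fell from 3 to 1. The trichohyalin gene Tchh was at 1.66 to 2.41 CPM in Bnc1+/+ and 1.89 to 1.92 CPM in Bnc1tr/tr. Krt31 and Hoxc13, which define the hair shaft, had no read in any ovary, and Gprc5d had none in the ovaries where these keratins were high. Krt35 had 1 read in each Bnc1+/+ ovary and 73, 54 and 44 reads in the Bnc1tr/tr ovaries, so no fold change is given for it. The part of such cells in the Gprc5a difference was not tested.

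**Figure D4:**
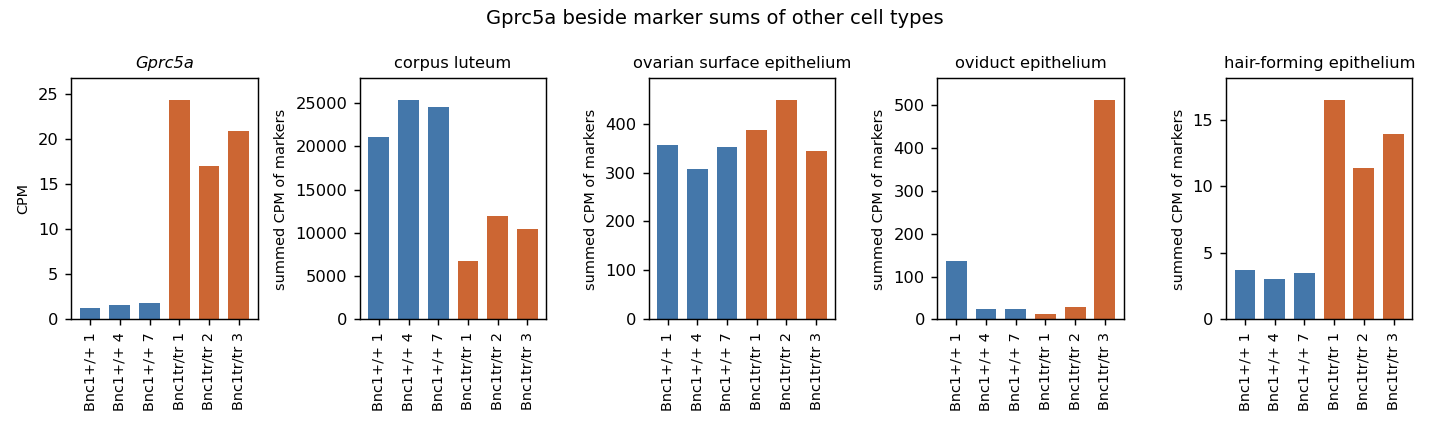
Bars, each panel from 0 on its own scale, of Gprc5a in CPM and of the summed CPM of 4 marker lists in the 6 ovaries (blue, Bnc1+/+; orange, Bnc1tr/tr). The luteal sum is lower and the hair-forming sum higher in all Bnc1tr/tr ovaries, the surface epithelium sums overlap, and the oviduct sum is high in Bnc1+/+ replicate 1 and Bnc1tr/tr replicate 3.

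The genes with the profile closest to each member were found among 16752 genes with a mean of at least 1 CPM, by the root mean square difference of log2 CPM over the 6 ovaries after each gene was centered on its own mean. Closest to Gprc5a were Acot5, a peroxisomal acyl-CoA thioesterase gene, with a root mean square difference of 0.21 log2 units, Insm1, a zinc finger factor of neuroendocrine cells (0.22), and Phlda2, an imprinted gene of the placenta (0.25). Acot5 had 3, 7 and 8 reads in Bnc1+/+ and 131, 75 and 127 reads in Bnc1tr/tr ovaries. Insm1 had 10, 11 and 9 reads in Bnc1+/+ and 147, 113 and 133 reads in Bnc1tr/tr ovaries. Phlda2 had 6 reads in each Bnc1+/+ ovary and 133, 57 and 89 reads in Bnc1tr/tr ovaries. All 3 thus came from lower levels than Gprc5a in Bnc1+/+ ovaries. Acot5, Insm1 and Phlda2 averaged 0.200, 0.338 and 0.204 CPM there. They reached the required mean of 1 CPM only through the Bnc1tr/tr ovaries, so nothing is read from their rise.

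Closest to Gprc5b were Peg3, an imprinted zinc finger gene (0.03 log2 units), Tmem35 and Gm5540 (0.05 for both). Peg3 was at 21.3, 17.4 and 19.0 CPM in Bnc1+/+ and at 20.5, 30.1 and 22.6 CPM in Bnc1tr/tr ovaries. Like Gprc5b, it was highest in Bnc1tr/tr replicate 2. Closest to Gprc5c were Gm9308 and Tcf15, a basic helix-loop-helix factor gene (0.07 for both), and Gm14335 (0.08), each highest in Bnc1tr/tr replicate 3. Tcf15 was counted at only 26 to 53 reads per ovary. These genes were ranked on the same values that describe the members, so their likeness is a description over 6 ovaries and 2 genotypes.

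**Figure D5:**
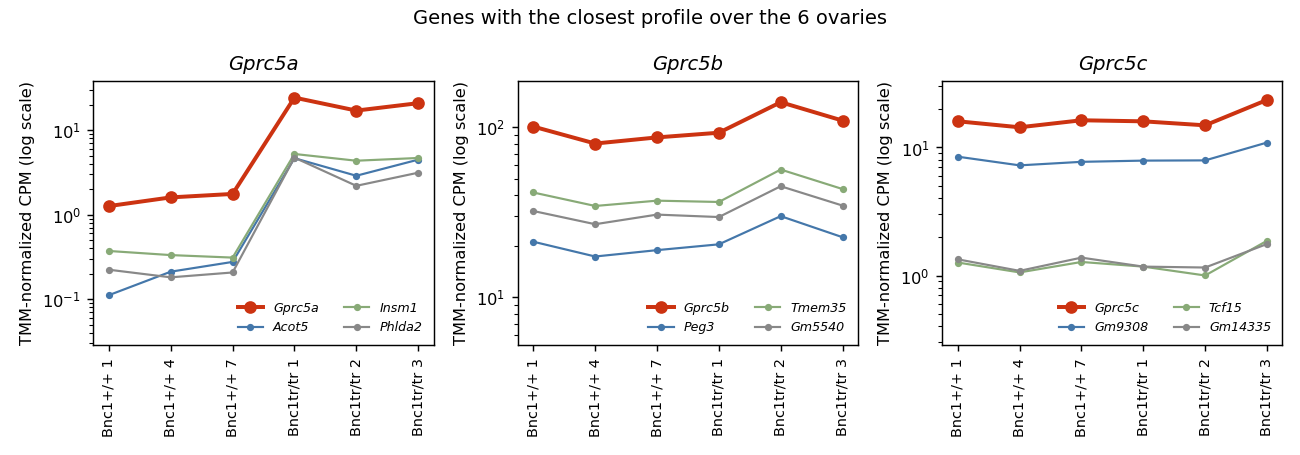
TMM-normalized CPM on a log axis (vertical) across the 6 ovaries (horizontal) for Gprc5a, Gprc5b and Gprc5c (red) and the 3 genes closest to each in profile; the lines only join the points of a gene. Acot5, Insm1 and Phlda2, which met the minimum mean CPM only through Bnc1tr/tr ovaries, step up with Gprc5a in all of these. The genes beside Gprc5b peak in Bnc1tr/tr replicate 2 and those beside Gprc5c in Bnc1tr/tr replicate 3.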

How the data were processed

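Total RNA was extracted with TRIzol from whole ovaries, and single-end libraries were run on an Ion Proton sequencer. The deposited values are counts, whole numbers of reads per gene and ovary that the authors did not normalize, listed by symbol. The submitters' processing notes name the builds mm10 and Sscrofa10.2. The aligner, the counting tool and its strand setting were not given in the sources used here.

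Genes were filtered with filterByExpr (minimum count 10) and compared with edgeR 4.0.16 (TMM, glmQLFit, glmQLFTest, R 4.3.3), two-sided and unpaired, with Benjamini-Hochberg adjustment over 19423 genes and a threshold of 0.05. Log2 CPM used a prior count of 2. Standard errors and 95% intervals were derived from the quasi-likelihood F statistic. The pipeline was tested on simulated counts. Lengths and positions came from GENCODE M21. Older symbols were matched through RefSeq synonyms, and 1 marker (Krt85) was not matched. The members, the lists and the ovaries left out together were chosen with earlier results of these data known. Named genes were the members, Bnc1, the DEGs of the pathway lists and neighbors, the 3 closest profiles per member (mean CPM of 1 or more) and markers of lists given beside a member. Other genes named from the lists or as neighbors, such as Gabbr1, Aldh1a1, Egfr, Stat3 and Ddx47, were chosen after their values were seen. The alternatives were DESeq2 size factors, library size, no filter, at least 10 counts in every ovary, DESeq2 1.42.0, limma-voom (limma 3.58.1), a robust fit and leaving out ovaries. Protein sequences were not analysed here. A gene of the list of retinoic acid receptors and targets is not reported here and was left out of its counts. The study compared littermates, but the labels do not say which mice were, so litter was not part of the test. Each p value sets the difference between the genotypes against the spread among the 3 samples of a genotype. The estimate of that spread draws in part on the other genes.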

Additional observations from a re-analysis of the deposited data

How the results depend on the processing

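The log2 fold change of Gprc5a lay between 3.61 and 3.86 under the 14 alternatives. For Gprc5b it lay between 0.18 and 0.48 and for Gprc5c between -0.01 and 0.34. Of all genes, 1372 were called, 2420 with DESeq2, 320 to 1282 on omission of any 1 ovary and 304 without Bnc1+/+ replicate 1 and Bnc1tr/tr replicate 3 together, an alternative added after the data were seen. With library size in place of TMM 35.6% of the calls were lower in Bnc1tr/tr, against 59.3%, and the median log2 fold change of all genes was 0.12, against 0.02. The adjusted p of Rdh11 and Apold1 was then 0.0533 and 0.0516, and limma-voom gave 0.0576 for Apold1. The log2 fold changes of Ptgir, Grm2, Grm4, Meis2, Crabp2, Rdh11, Apold1 and Cdkn1b kept their direction under all 14. The cause of these changes was not tested. No paired analysis was possible because the labels do not say which mice were littermates. With 3 ovaries per genotype and a few reads, Gprc5d could not be compared.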
